A study of Mus musculus with 18 samples.

Results

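Cells that divide need a large machinery of cyclins, kinases, motors and scaffold proteins that is made late in each cycle and is nearly absent from resting cells. The 55 genes described here belong to that machinery: cyclins and kinases of the G2 and M phases, kinetochore, spindle and condensin genes, and genes of cytokinesis, the final splitting of the cell. They were listed by name for their function, with earlier results of these data known, by a rule that itself uses no measured value, and make up 55 of the 51912 genes in the count table. All 55 had enough reads for testing, among 24495 genes that did, and the lowest count of any member in any library was 38 read pairs.

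The RNA came from primary cortical astrocyte cultures of hemizygous Aldh1l1-EGFP/Rpl10a mice on a mixed B6 and FVB background, in which the astrocyte gene promoter of Aldh1l1 drives a green fluorescent protein fused to the ribosomal protein Rpl10a. Cortices of male and female pups from postnatal day 0 were mixed in equal numbers, grown for 14 days, replated and grown for 6 days, kept without serum for 24 h, and then held in sealed chambers for 24 h in serum-free medium with 50 mM ethanol or without it (0 mM, the control). Translating ribosome affinity purification (TRAP) pulls tagged ribosomes down with an antibody to the fluorescent protein, so the IP fraction holds ribosome-bound RNA of cells that carry the tag, while the input fraction is an aliquot of the whole lysate, taken before the pull-down, with RNA from every cell type. There were 6 control and 6 ethanol dishes in the IP fraction, and 3 control and 3 ethanol dishes in the input fraction, each of which also has an IP library. The labels do not say whether the dishes came from separate preparations, so the p-values measure the spread between dishes. In bulk RNA of this kind, fewer dividing cells and less of each transcript per dividing cell cannot be told apart.

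As background, entry into mitosis is driven by Cdk1 bound to cyclins A2 and B, which the phosphatases Cdc25b and Cdc25c switch on. The spindle checkpoint holds cells until every kinetochore has caught microtubules, and the anaphase-promoting complex (APC/C) with its activator Cdc20 then degrades cyclin B and lets the chromosomes part. Most of these genes are silenced in resting cells by the DREAM complex and switched on by B-MYB, MuvB and FoxM1. These act at promoters through a short element named CHR (cell cycle genes homology region). CCAAT boxes, a separate promoter motif bound by another factor, were counted as well. Astrocytes of newborn rodents, unlike neurons, keep dividing in culture.

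The promoters of these genes share letters that the choice by function did not use. In RefSeq promoter windows of 300 bases (250 before and 50 after each transcript start, assembly GRCm38.p6), 44 of the 55 members had a window, 46 windows in all. A CHR hexamer, TTTGAA or TTCGAA on either strand, was found in 82.6% of the member windows against 19.2% of all 32851 windows. A CCAAT box on either strand was found in 78.3% against 37.4%, and both motifs together in 71.7% against 7.52%. TTCGAA reads the same on both strands, and a hexamer and a CCAAT box can share a base at their ends. A match is a match of letters and not a bound site.

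The following stretches are shown because they belong to 4 of the members that fell most with ethanol and hold a CHR hexamer before the start. Each gives the 150 bases before a RefSeq start, 5′ to 3′ on the gene's strand, with CHR hexamers and CCAAT boxes in capitals (TTCAAA and ATTGG are the same motifs read from the other strand). The Kif2c stretch (GRCm38.p6, chr4:117178773-117178922, minus strand) lies within the longest gene model, before the start of a shorter transcript, and holds 1 hexamer and no CCAAT box. The Prc1 stretch (chr7:80294326-80294475, plus strand) ends inside the first exon of the GENCODE model, which starts at 80294450, and holds 1 of each motif, the Ckap2l stretch (chr2:129297213-129297362, minus strand) 1 hexamer and 3 CCAAT boxes, and the Mki67 stretch (chr7:135716380-135716529, minus strand) 2 hexamers and 1 CCAAT box.

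Kif2c: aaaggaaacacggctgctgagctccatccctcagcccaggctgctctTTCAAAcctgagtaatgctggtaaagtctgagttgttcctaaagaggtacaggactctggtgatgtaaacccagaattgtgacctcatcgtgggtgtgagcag
Prc1: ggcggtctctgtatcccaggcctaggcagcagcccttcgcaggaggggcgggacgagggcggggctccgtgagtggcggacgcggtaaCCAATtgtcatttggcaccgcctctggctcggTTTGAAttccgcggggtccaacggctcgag
Ckap2l: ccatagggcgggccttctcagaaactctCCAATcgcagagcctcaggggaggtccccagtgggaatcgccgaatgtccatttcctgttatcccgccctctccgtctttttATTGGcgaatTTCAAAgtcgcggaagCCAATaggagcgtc
Mki67: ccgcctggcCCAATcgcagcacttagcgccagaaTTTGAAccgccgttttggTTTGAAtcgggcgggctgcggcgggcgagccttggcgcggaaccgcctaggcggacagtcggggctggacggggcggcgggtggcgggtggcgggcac

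**Figure D1:**
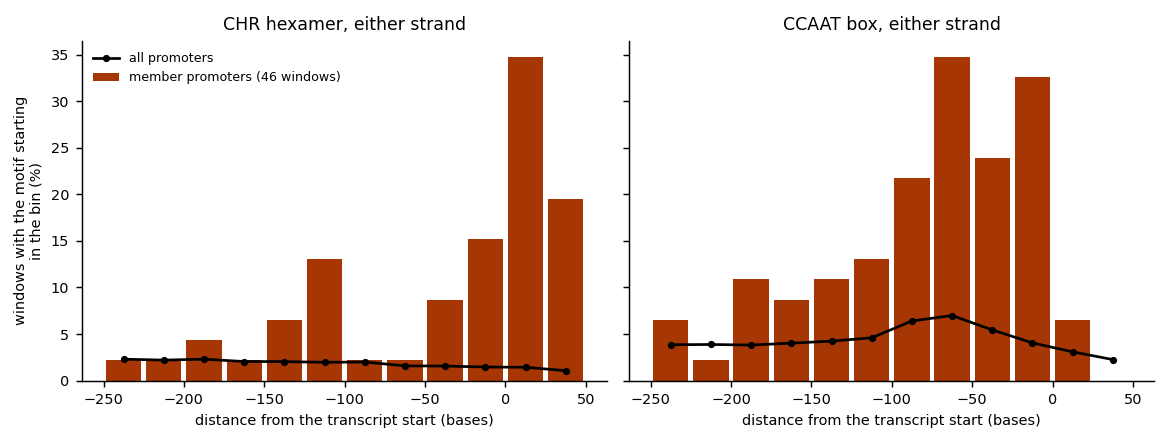
Share of promoter windows in which a CHR hexamer (left) or a CCAAT box (right) begins in each bin of 25 bases, in % of windows, against the distance from the transcript start in bases, for the 46 member windows (bars) and all 32851 windows (line). In the bin from 0 to 25 bases after the start, 34.8% of member windows held a hexamer against 1.43% of all windows, and 34.8% held a CCAAT box from 75 to 50 bases before it against 6.99%.

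The hexamers of the members gathered around the start: 73.9% of member windows held one within 50 bases of it, against 5.31% of all windows. The CCAAT boxes lay further upstream, as the plot of motif positions shows. Counted by gene, the hexamer was present in 81.8% of the 44 members with a window, against 21.7% of all 27025 genes. Among 51 other periodic mitosis genes with a window it was present in 60.8%, and among 37 genes of DNA replication and S phase in 18.9%.

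Ethanol lowered most of the members in both fractions. In the IP fraction 43 of the 55 were lower, 1 was higher and 11 did not pass (edgeR quasi-likelihood test, Benjamini-Hochberg adjusted p below 0.05 over all genes), where 9.48% of all tested genes were lower and 11.9% higher. Of the 13453 genes whose mean over libraries reached 1 CPM (read pairs per 1000000 on genes, after scaling), 16.0% were called lower. In the input fraction 43 were lower and none was higher, where 7.78% of all genes were lower and 7.21% higher, and 13.6% of genes with at least 1 CPM were lower. The median log2 fold change of the members was -0.29 in IP and -0.36 in input, while the medians over all tested genes were 0.0054 and -0.00092. The changes were small in size: 27 members in IP and 36 in input had a log2 fold change below -0.3, and 1 and 3 fell by more than 1.5-fold.

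The summed level of the 55 members separated the groups. In the input libraries the sum was 504.2, 504.2 and 505.9 CPM in the control dishes and 404.6, 420.5 and 409.0 CPM in the ethanol dishes. In IP it ran from 483.7 to 520.4 CPM (median 501.5) in the controls and from 417.0 to 438.9 CPM (median 426.0) with ethanol, so that the groups overlapped in neither fraction. Without Ckap2, Smc4 and Ncapd2, the 3 members with the highest mean CPM over all 18 libraries, the sums were 398.1 ± 2.83 and 312.8 ± 7.43 CPM in input (mean ± SD, n = 3) and 396.8 ± 10.3 and 325.9 ± 8.32 CPM in IP (n = 6). Gene by gene, every ethanol library lay below every control library for 46 members in input, where 13.1% of all genes did so, and for 31 members in IP, where 4.87% did.

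The members called lower in the separate fractions were mostly shared. There were 40 members lower in both, 3 in IP only (*Bub1b*, *Cenpa* and *Smc4*), 3 in input only (*Kif15*, *Ncapd2* and *Ncapg*) and 9 lower in neither. Those 9 were *Cdc25b*, *Cdc25c*, *Cdca2*, *Ckap2*, *Kif18b*, *Mad2l1*, *Plk4*, *Spc25* and *Ttk*. The input libraries came from dishes that also gave IP libraries, so the comparisons are not independent. Of the 44 calls in IP, 37 held under every other normalization, filter and test and without any 1 library, apart from the test against a fold change of 1.2 and the fits to 3 dishes per group, and of the 43 calls in input 33 did. Set side by side with no test, 28 of the 36 members with a CHR hexamer in their promoter window were lower in IP, at a median log2 fold change of -0.30, and 6 of the 8 members with a window but no hexamer were, at a median of -0.26. In input 29 of the 36 and 6 of the 8 were lower, at nearly equal medians of -0.40 and -0.39.

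**Figure D2:**
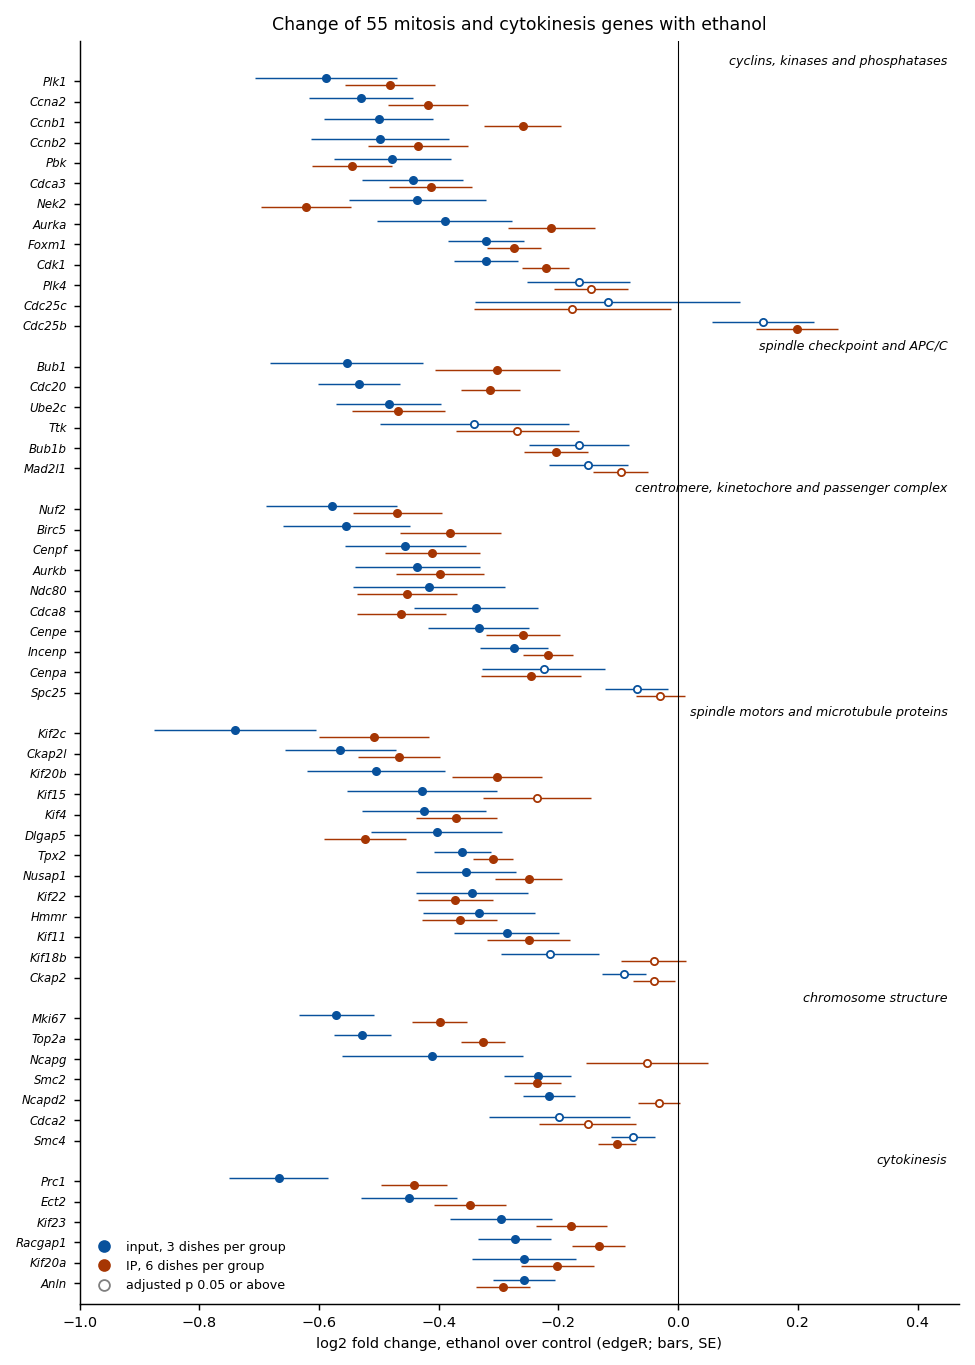
Log2 fold change of the 55 members, ethanol over control, by role, in input (blue, 3 dishes per group) and IP (brown, 6 dishes per group), with the SE as bars and open points where the adjusted p is 0.05 or above. Every member but *Cdc25b* has a negative value in both fractions.

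Of the 13 cyclins, kinases and phosphatases, 10 fell in IP and 10 in input, with medians of -0.27 and -0.44. *Cdk1* (ENSMUSG00000019942, GRCm38 chromosome 10 from 69335146 to 69352938), the kinase that drives mitotic entry and the member of this group with the highest level per length, had 17.4, 19.4 and 19.0 CPM in the input controls and 14.9, 15.3 and 14.6 CPM with ethanol. In IP its level ran from 17.8 to 19.7 CPM (median 18.4) in the controls and from 15.1 to 16.3 CPM (median 15.8) with ethanol. The groups did not overlap in either fraction, and the log2 fold change was -0.22 ± 0.039 in IP and -0.32 ± 0.054 in input (± SE here and in what follows, adjusted p = 1.2e-05 and 1.1e-07).

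Cyclin B1, the partner that is degraded to end mitosis, had a numerically larger change in input. *Ccnb1* had 5.92, 6.31 and 6.05 CPM in the input controls and 4.44, 4.87 and 3.62 CPM with ethanol. In IP it ran from 4.77 to 6.10 CPM (median 5.89) in the controls and from 4.49 to 5.06 CPM (median 4.59) with ethanol, so the IP groups overlapped, with the lowest control dishes inside the ethanol range. Its log2 fold change was -0.26 ± 0.064 in IP and -0.50 ± 0.091 in input (adjusted p = 0.0016 and 1.5e-06). The cyclins A2 and B2 fell as well, *Ccna2* by 0.42 and 0.53 and *Ccnb2* by 0.43 and 0.50 on the log2 scale in IP and input.

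*Nek2*, a kinase that parts the centrosomes before mitosis, had the largest decrease of all members in IP. Its level there was 3.73 to 4.59 CPM (median 4.06) in the controls and 2.52 to 2.83 CPM (median 2.68) with ethanol, a log2 fold change of -0.62 ± 0.075 (adjusted p = 1.6e-09). In input it had 3.77, 3.95 and 3.60 CPM against 2.77, 2.43 and 3.22 CPM. The ethanol dishes were lower without overlap in both fractions, and the input change was -0.44 ± 0.11 (adjusted p = 0.0018).

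*Pbk*, a mitotic kinase, and *Plk1*, the polo-like kinase of spindle assembly and mitotic exit, were lower in every ethanol dish. *Pbk* had 4.88 to 5.62 CPM (median 5.23) in the IP controls and 3.26 to 4.22 CPM (median 3.51) with ethanol, and *Plk1* 3.29 to 4.02 CPM (median 3.75) and 2.52 to 2.82 CPM (median 2.64). Their input values were 5.24, 4.80 and 5.50 CPM against 3.84, 4.05 and 3.27 CPM for *Pbk* and 3.53, 3.87 and 3.48 CPM against 2.44, 2.42 and 2.39 CPM for *Plk1*. The log2 fold changes were -0.54 ± 0.067 and -0.48 ± 0.098 for *Pbk* and -0.48 ± 0.075 and -0.59 ± 0.12 for *Plk1* in IP and input (adjusted p at most 3e-05).

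The transcription factor *Foxm1*, which switches on many G2 and M genes, changed by -0.27 and -0.32, the centrosomal kinase *Aurka* by -0.21 and -0.39, and *Cdca3*, which helps trigger mitotic entry, by -0.41 and -0.44. *Plk4*, the kinase that starts centriole duplication, did not pass in either fraction (-0.15 and -0.17, adjusted p = 0.090 and 0.22), and neither did *Cdc25c* (-0.18 ± 0.16 and -0.12 ± 0.22), the member with the lowest counts.

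*Cdc25b* (ENSMUSG00000027330, GRCm38 chromosome 2 from 131186949 to 131198497) was the exception among the members. This phosphatase, which starts the activation of Cdk1, had 3.28 to 3.85 CPM (median 3.61) in the IP controls and 3.90 to 4.50 CPM (median 4.06) with ethanol, a log2 fold change of 0.20 ± 0.069 (adjusted p = 0.029) with no overlap. In input it had 5.68, 6.08 and 5.29 CPM in the controls and 6.24, 5.96 and 6.70 CPM with ethanol, the ranges overlapped, and the change of 0.14 ± 0.085 did not pass (adjusted p = 0.31). The call in IP was lost without IP control replicate 1, 2 or 3 (0.18, 0.19 and 0.17) or IP ethanol replicate 2 or 6 (0.17 and 0.19), with adjusted p from 0.056 to 0.10. It was also lost with no filter on low counts (0.19, adjusted p = 0.052), with GC and length trends removed (0.18, adjusted p = 0.0501), against a fold change of 1.2, and with IP replicates 1 to 3 or 4 to 6 alone (0.29 and 0.097, adjusted p = 0.052 and 0.63).

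Of the 6 genes of the spindle checkpoint and the APC/C, 4 fell in IP and 3 in input, with medians of -0.29 and -0.41, and all 6 were lower without overlap in input. *Cdc20*, the activator of the APC/C, had 10.9, 12.1 and 11.9 CPM in the input controls and 8.72, 8.17 and 7.29 CPM with ethanol. In IP it ran from 11.2 to 13.0 CPM (median 11.9) and from 8.52 to 10.7 CPM (median 9.48), again with no overlap, and its changes were -0.31 ± 0.049 and -0.53 ± 0.068 (adjusted p = 9.5e-07 and 7.25e-13). The APC/C ubiquitin carrier *Ube2c* fell by 0.47 and 0.48 on the log2 scale, and the checkpoint kinase *Bub1* by 0.30 and 0.55. Its relative *Bub1b* passed in IP alone (-0.20, adjusted p = 0.0032, against -0.16 in input, adjusted p = 0.19). The checkpoint kinase *Ttk* (-0.27 and -0.34) and the checkpoint protein *Mad2l1* (-0.096 and -0.15) did not pass in either fraction.

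Of the 10 genes of the centromere, kinetochore and passenger complex, 9 fell in IP and 8 in input. *Aurkb*, *Incenp*, *Birc5* and *Cdca8*, the 4 subunits of the chromosomal passenger complex that corrects faulty attachments, all fell in both fractions, by 0.40, 0.22, 0.38 and 0.46 on the log2 scale in IP and by 0.44, 0.27, 0.55 and 0.34 in input. The centromeric histone *Cenpa* passed in IP alone (-0.24, adjusted p = 0.026, against -0.23 in input, adjusted p = 0.14), while the kinetochore motor *Cenpe* (-0.26 and -0.33) and the large kinetochore protein *Cenpf* (-0.41 and -0.46) fell in both.

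The Ndc80 complex, which grips microtubules at the kinetochore, was divided. Its subunits *Ndc80* (-0.45 and -0.42) and *Nuf2* (-0.47 and -0.58) fell in both fractions. *Spc25*, a subunit of the same complex, had 18.6, 17.5 and 17.0 CPM in the input controls and 17.3, 17.0 and 16.5 CPM with ethanol, and 15.2 to 17.4 CPM (median 17.0) against 15.4 to 17.5 CPM (median 16.3) in IP. The ranges overlapped in both fractions and the changes of -0.030 ± 0.041 and -0.069 ± 0.053 did not pass (adjusted p = 0.70 and 0.47). Per kilobase of its longest coding transcript, *Spc25* stood at 11.6 ± 0.53 CPM in the input controls (SD, n = 3), against 1.80 CPM for *Nuf2* and 1.33 CPM for *Ndc80*, although the proteins work in 1 complex. The counts are summed per gene, so which transcripts, made in or outside the cell cycle, give the levels of *Spc25* and *Ckap2* was not tested. *Spc24*, the remaining subunit, was in the list of other periodic genes and went from 2.92 ± 0.29 to 1.62 ± 0.17 CPM in input and from 2.28 ± 0.11 to 1.55 ± 0.14 CPM in IP.

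**Figure D3:**
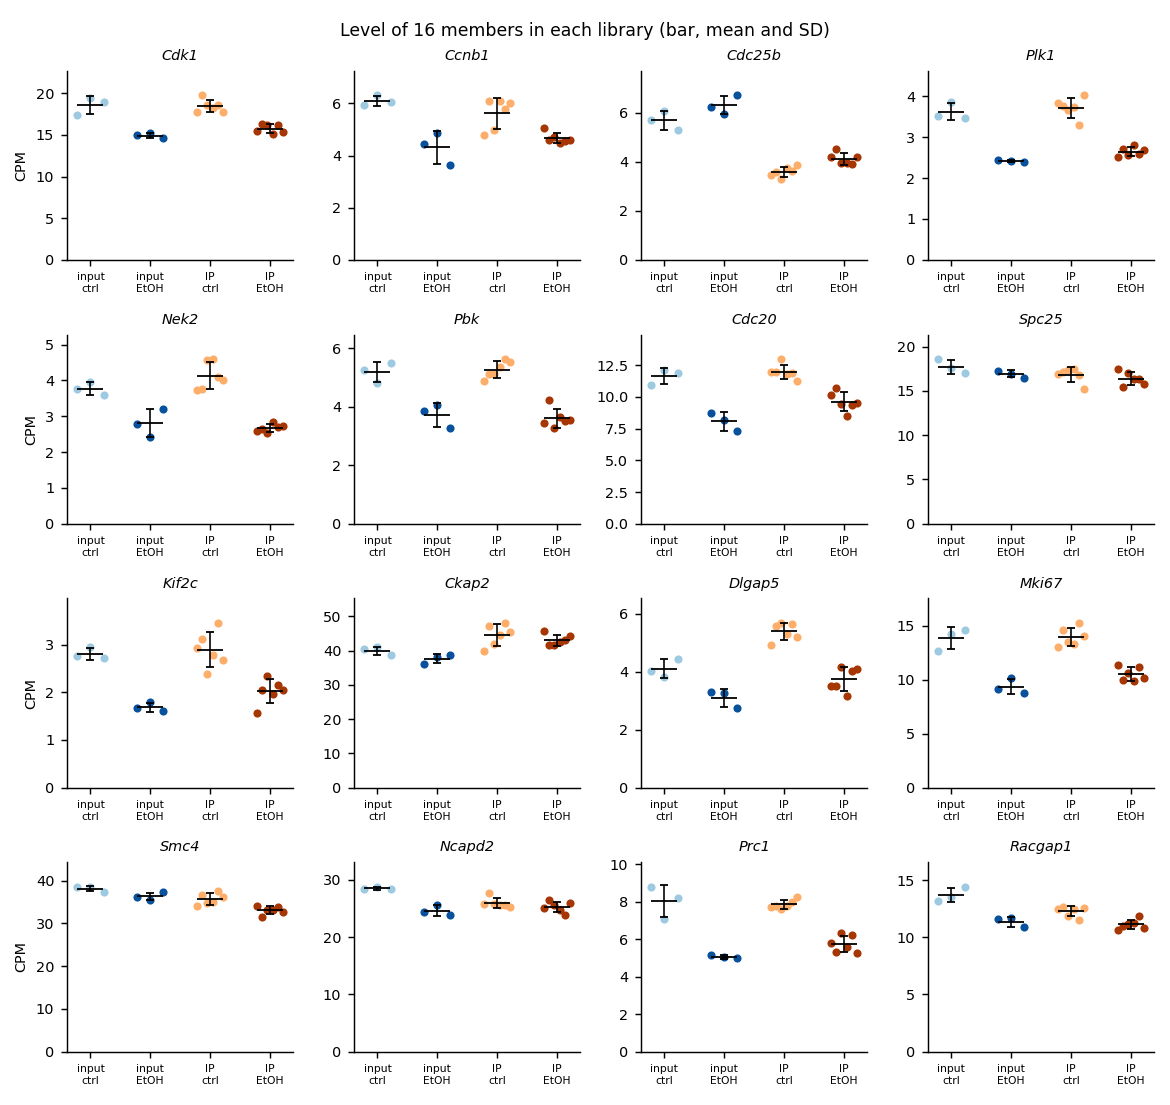
CPM of 16 members in each library (points) with the mean and SD of each group (bars), for input control, input ethanol, IP control and IP ethanol; each vertical axis starts at 0. *Kif2c*, *Prc1*, *Plk1* and *Mki67* are lower with ethanol in every library of both fractions, while *Spc25* and *Ckap2* overlap between the groups.

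Of the 13 spindle motors and microtubule proteins, 10 fell in IP and 11 in input, with medians of -0.31 and -0.36. *Kif2c* (ENSMUSG00000028678, GRCm38 chromosome 4 from 117159639 to 117182639), a motor that takes microtubules apart at the centromere, had the largest decrease of all members in input. It had 2.76, 2.96 and 2.72 CPM in the controls and 1.67, 1.79 and 1.60 CPM with ethanol, a fall of 40.1% with a log2 fold change of -0.74 ± 0.14 (adjusted p = 1.7e-06). In IP it had 2.39 to 3.45 CPM (median 2.86) against 1.58 to 2.35 CPM (median 2.05), and the change was -0.51 ± 0.092 (adjusted p = 1.8e-05). Both fractions were free of overlap, although in IP the lowest control dish and the highest ethanol dish were close.

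*Dlgap5*, which steadies the kinetochore fibres, was among the 3 largest decreases in IP. It had 4.93 to 5.67 CPM (median 5.43) in the IP controls and 3.17 to 4.16 CPM (median 3.77) with ethanol, and 4.03, 3.81 and 4.45 CPM against 3.29, 3.26 and 2.73 CPM in input. The changes were -0.52 ± 0.068 (adjusted p = 1.4e-08) and -0.40 ± 0.11 (adjusted p = 0.0028), with no overlap. *Tpx2*, which builds microtubules around the chromosomes, changed by -0.31 ± 0.034 and -0.36 ± 0.048, the spindle protein *Ckap2l* by -0.47 and -0.56, the microtubule-binding protein *Nusap1* by -0.25 and -0.35, and the hyaluronan receptor and spindle protein *Hmmr* by -0.36 and -0.33. The motors *Kif11*, which pushes the spindle poles apart, *Kif4*, *Kif22* and *Kif20b* fell in both fractions, *Kif15* passed in input alone (-0.43 against -0.24 in IP, adjusted p = 0.0067 and 0.055), and *Kif18b* passed in neither (-0.041 in IP and -0.21 in input).

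*Ckap2*, a protein of the spindle poles, had the highest level per length of all members and 1 of the smallest changes of this group. Its level was 40.3, 40.9 and 38.7 CPM in the input controls and 36.1, 38.1 and 38.8 CPM with ethanol, and 39.8 to 48.0 CPM (median 45.1) against 41.5 to 45.6 CPM (median 42.7) in IP. The ranges overlapped in both fractions, and the changes of -0.041 ± 0.035 and -0.091 ± 0.037 did not pass (adjusted p = 0.48 and 0.080).

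Of the 7 genes of chromosome structure, 4 fell in IP and 5 in input. *Mki67* (ENSMUSG00000031004, GRCm38 chromosome 7 from 135689784 to 135716361), which coats mitotic chromosomes and is the usual stain for cycling cells, had 12.7, 14.3 and 14.6 CPM in the input controls and 9.09, 10.1 and 8.79 CPM with ethanol. In IP it had 13.0 to 15.2 CPM (median 13.7) against 9.86 to 11.3 CPM (median 10.4). The groups did not overlap, and the level fell by 32.7% in input (-0.57 ± 0.063, adjusted p = 3.8e-17) and by 24.1% in IP (-0.40 ± 0.046, adjusted p = 6.4e-10). *Top2a*, the enzyme that untangles the chromosomes, fell by 30.6% in input (-0.53 ± 0.047) and by 20.2% in IP (-0.33 ± 0.037).

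The subunits of condensin, the ring that compacts chromosomes, had unlike values. *Smc2* fell by 0.24 in both fractions (adjusted p = 3.3e-06 and 0.00056 in IP and input). Its partner *Smc4*, the highest of this group per length, had 38.5, 38.5 and 37.4 CPM in the input controls and 36.2, 35.5 and 37.3 CPM with ethanol, and 34.1 to 37.6 CPM (median 35.6) against 31.5 to 34.2 CPM (median 33.1) in IP. These shifts were small, -0.10 ± 0.032 in IP, with overlap, and -0.075 ± 0.037 in input, without it (adjusted p = 0.014 and 0.19). *Ncapd2* had 28.4, 28.8 and 28.4 CPM against 24.4, 25.7 and 23.8 CPM in input, a change of -0.22 ± 0.043 (adjusted p = 1.7e-05). In IP it had 25.3 to 27.8 CPM (median 25.7) against 23.9 to 26.5 CPM (median 25.4), an overlap in range and a change of -0.032 ± 0.035 (adjusted p = 0.60). *Ncapg* followed the same pattern with a wider error (-0.41 ± 0.15 in input, adjusted p = 0.046 and 0.105 with DESeq2, and -0.052 ± 0.10 in IP), and *Cdca2*, which recruits a phosphatase to chromosomes, did not pass in either fraction.

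All 6 genes of cytokinesis fell in both fractions, with medians of -0.25 in IP and -0.28 in input. *Prc1* (ENSMUSG00000038943, GRCm38 chromosome 7 from 80294450 to 80316259), which bundles the microtubules of the central spindle, had 8.80, 7.11 and 8.22 CPM in the input controls and 5.19, 5.04 and 4.99 CPM with ethanol. In IP it had 7.60 to 8.29 CPM (median 7.79) against 5.28 to 6.34 CPM (median 5.68). The groups lay well apart in both fractions, and the changes were -0.67 ± 0.083 in input (adjusted p = 1.3e-13) and -0.44 ± 0.056 in IP (adjusted p = 6.6e-09).

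The partners of *Prc1* in the cleavage furrow had smaller changes. *Racgap1*, a subunit of centralspindlin and the highest of this group per length, had 13.2, 13.5 and 14.4 CPM in the input controls and 11.6, 11.7 and 10.9 CPM with ethanol, and 11.5 to 12.7 CPM (median 12.5) against 10.7 to 11.9 CPM (median 11.1) in IP, where the ranges overlapped. Its changes were -0.27 ± 0.061 (adjusted p = 0.00014) and -0.13 ± 0.044 (adjusted p = 0.022), and its motor partner *Kif23* changed by -0.30 and -0.18. *Ect2*, a gene of the cleavage furrow, fell by 0.45 and 0.35 on the log2 scale in input and IP, the furrow scaffold *Anln* by 0.26 and 0.29, and the motor *Kif20a* by 0.26 and 0.20. The *Kif20a* call in input was lost with DESeq2 (adjusted p = 0.053), which leaves 5 of the 6 genes called there, and without 4 of the 6 input libraries in turn (input control replicate 4 or 5 or input ethanol replicate 4 or 6, adjusted p from 0.078 to 0.20).

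Per kilobase of the longest coding transcript, the members spanned a wide range in the input controls, from *Ckap2* (15.4 ± 0.44 CPM per kb, SD, n = 3), *Spc25* (11.6 ± 0.53) and *Smc4* (8.84 ± 0.14) through *Cdc20* (6.49 ± 0.34), *Ncapd2* (6.16 ± 0.045) and *Tpx2* (5.45 ± 0.31) down to *Ncapg* (0.55 ± 0.065), *Cenpf* (0.44 ± 0.062) and *Cdc25c* (0.43 ± 0.041). *Cdc20* and *Ncapd2* did not differ beyond their spread, nor did *Incenp* (4.93 ± 0.050) and *Top2a* (4.93 ± 0.27), nor *Cenpf* and *Cdc25c*. Of the 3 members at the top, *Ckap2* and *Spc25* passed in neither fraction and *Smc4* in IP alone, while *Cdc20*, next in order, fell in both. Over the 55 members the level per length and the log2 fold change were only weakly related (Spearman correlation 0.15 in IP and 0.20 in input), a description over genes that share their libraries.

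The log2 fold change was numerically lower in input than in IP for 42 of the 55 members, among them *Cdc25b*, which was positive in both. In the fit of the difference between fractions, 42 members and 12232 of all 24495 genes had the lower value in input. The members share the same libraries, so their signs are not independent. When the ethanol effects of the fractions were tested against each other, no member passed (lowest adjusted p = 0.69), and neither did any other gene (0.0% of 24495). At an unadjusted p below 0.05 there were 1459 of the 24495 genes and 4 of the 55 members, so the share of members was near that of all genes. Those members, named after their values were seen, were *Ncapd2*, *Top2a*, *Cdc20* and *Prc1*, with a less negative change in IP in each case. With adjusted p-values, DESeq2 called 2 genes. Among the 12 libraries from dishes with both fractions, a fit that blocked on dish called 102 genes (0.416%), none of them a member.

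The fractions themselves differed for some members. Over both treatments 12 members were higher in IP than in input and 14 lower, where 25.2% of all tested genes were higher and 25.8% lower, so the share of members called was near that of genes in general. The median log2 fold change was -0.019. The largest increases in the ribosome-bound RNA were those of *Kif4* (0.43 ± 0.060), *Tpx2* (0.37), *Dlgap5* (0.34), *Smc2* (0.27) and *Incenp* (0.21). The largest decreases were those of *Cdc25b* (-0.64), *Cenpa* (-0.61), *Ube2c* (-0.54), *Birc5* (-0.44) and *Cdca3* (-0.38). The 10 values kept their sign under each alternative tried. By role, 6 of the 13 spindle motors and microtubule proteins were higher in IP and 1 was lower, while 6 of the 13 cyclins, kinases and phosphatases were lower and none was higher. The members lower in IP had a median transcript length of 3113 bases and the higher ones 3980, and over the 55 members length and fold change gave a Spearman correlation of 0.27 (0.18 over 12724 protein-coding genes with at least 1 CPM). Its part in these differences was not tested.

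**Figure D4:**
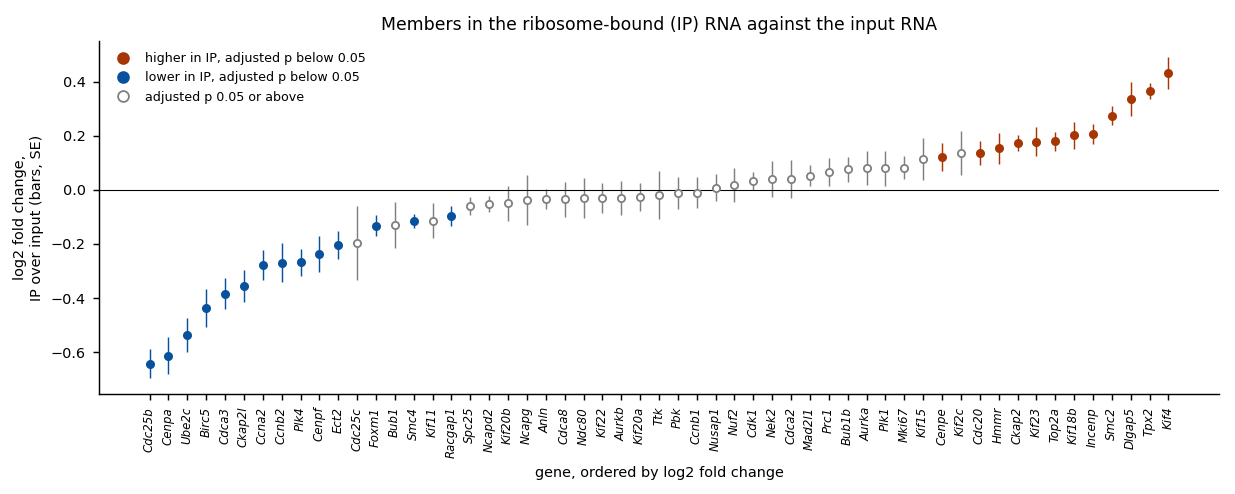
Log2 fold change of each member in IP over input, over both treatments, in order of its value, with the SE as bars; filled points passed at an adjusted p below 0.05 (brown, higher in IP; blue, lower). The values run from -0.64 (*Cdc25b*) to 0.43 (*Kif4*), with 29 members not called.

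Other genes of the cycle were counted in lists chosen by function. Of 60 other periodic mitosis genes, 28 were lower and 2 higher in IP, and 25 were lower and none higher in input, with medians of -0.24 and -0.27. The 3 with the smallest p in IP were the Cdk subunit *Cks1b* (-0.29), *Pimreg* (-0.54) and the condensin subunit *Ncaph* (-0.34). Of 46 genes of DNA replication and S phase, 34 were lower in IP and 30 in input, none higher, with medians of -0.24 and -0.26, led by the helicase subunits *Mcm3* (-0.41) and *Mcm5* (-0.41) and by *Uhrf1* (-0.41), which maintains DNA methylation. These medians lie near those of the members.

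The core parts of the same machines, which cells make throughout the cycle, and the other lists below had medians near 0. A median near 0 does not mean that a list was unchanged. Of all tested genes, 11.9% were higher and 9.48% lower in IP, and 7.21% and 7.78% in input. Of 26 core subunits of the APC/C and of cohesin, the ring that holds sister chromatids, 4 were higher and 4 lower in IP (15.4% each). In input 3 were higher and 7 lower (11.5% and 26.9%), and the medians were -0.00090 in IP and -0.039 in input. The 3 with the smallest p in IP were *Anapc13* (-0.22), *Stag2* (0.14) and *Mau2* (0.12). Of 13 MuvB, DREAM and B-MYB factors, 1 was higher and 4 lower in IP (7.69% and 30.8%) and 4 lower in input (30.8%). *Mybl1* (-0.16), *E2f4* (-0.12) and *Mybl2* (-0.39), the gene of B-MYB, had the smallest p in IP. Of 20 D cyclins, Rb1 family and CDK inhibitor genes, 9 were higher and 9 lower in IP (45% each) and 8 and 8 in input (40% each). Most genes of this list were thus called, in opposite directions. *Ccnd1* (-0.24) and *Ccnd3* (-0.20), cyclins that carry cells through G1, fell, and the inhibitor *Cdkn2b* rose (0.19).

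**Figure D5:**
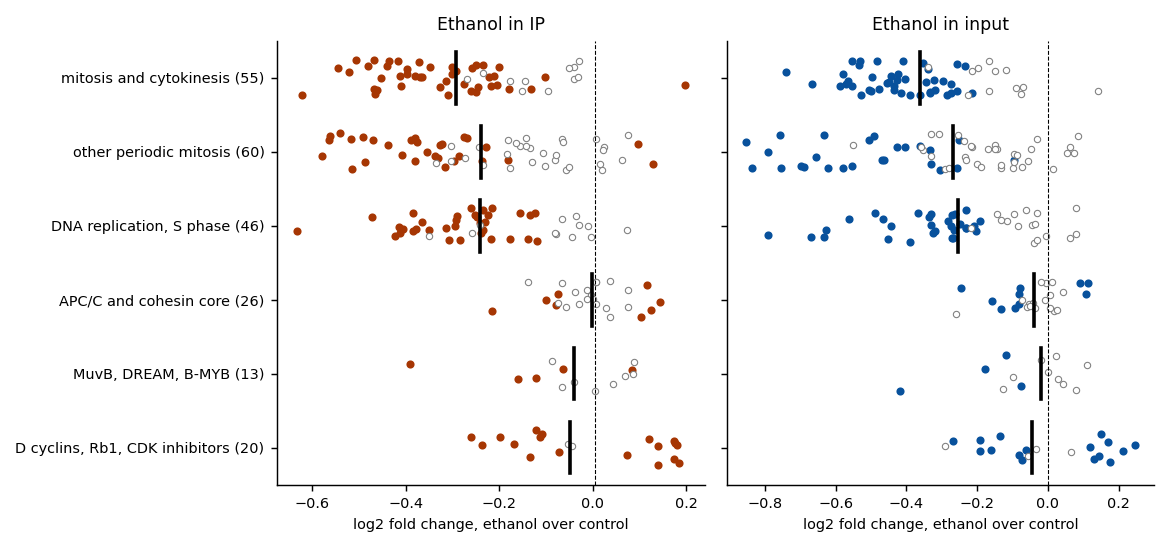
Log2 fold change, ethanol over control, of each gene in the members and in 5 other lists, in IP (left) and input (right); filled points passed at an adjusted p below 0.05, open grey points did not, the thick bar is the list's median and the dashed line the median of all tested genes. The medians of the members, -0.29 and -0.36, lie beside those of the other periodic and the S phase genes, and those of the remaining lists lie between -0.049 and 0.

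The libraries held 74239854 to 132810705 read pairs on genes, with the control and ethanol groups overlapping in IP and the ethanol libraries the shallower ones in input (74706940 to 85029665 against 85866937 to 94032838), and the closest pair of replicates differed by more than counting noise (chi-square per degree of freedom 3.87). Astrocyte markers summed to 2451 to 2531 CPM in the IP controls and 1580 to 1643 CPM in the input controls, with 2543 to 2630 and 1626 to 1660 CPM after ethanol. Among these 12 markers, 4 were called higher and 1 lower in IP, and 4 higher and 4 lower in input. Microglia, which also divide in such cultures, gave 132.5 to 138.8 CPM in the input controls and 136.8 to 153.6 with ethanol over 12 markers, and 32.6 to 36.2 and 35.6 to 40.9 CPM in IP. Of these markers, 2 were called higher in IP (16.7%) and 3 in input (25%), and none lower. Over all tested genes the shares were 11.9% higher and 9.48% lower in IP, and 7.21% and 7.78% in input. Endothelial and mural markers fell in sum from 1294–1365 to 894–962 CPM in input and from 1625–1759 to 1049–1246 CPM in IP, with 2 of the 9 tested called lower (*Acta2* and *Kdr*), *Acta2* alone giving 84.8% to 93.9% of the sum, *Cldn5* at 0 in every library and *Pecam1* and *Cdh5* under 0.5 CPM. Which cells made *Acta2* was not tested, and neither was the part of microglia or of the cells with *Acta2* in the members' change. Oligodendrocyte lineage markers (10 genes) summed to 165.1 to 184.5 and 160.9 to 166.9 CPM in input and 271.4 to 289.3 and 250.4 to 271.7 CPM in IP, neuron markers (10) to 168.7 to 172.8 and 161.3 to 172.7, and 215.3 to 230.7 and 206.8 to 224.3. Fibroblast and meningeal markers (10) summed to 2092 to 2149 and 2019 to 2154 CPM in input and 1749 to 1781 and 1614 to 1859 CPM in IP, and ependymal markers (6) to 385.1 to 403.2 and 377.3 to 397.4, and 436.6 to 474.5 and 453.1 to 502.6. A single gene gave much of each of these sums. *Olig1* gave 68.2% to 73.9% of the oligodendrocyte lineage sum and *Stmn2* 44.0% to 52.1% of the neuron sum. *Fn1* gave 84.9% to 88.8% of the fibroblast and meningeal sum and *Foxj1* 92.7% to 95.3% of the ependymal sum.

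Some members share exons with a gene on the other strand, in particular *Kif20a* with *Cdc23* (29.3% of its exon bases), *Ube2c* with *Tnnc2* (22.8%), *Kif4* with *Pdzd11* (15.1%), *Ncapg* with *Lcorl* (13.4%) and *Ccna2* with *Exosc9* (12.5%). The counts of the main test took both strands and left out pairs that matched several genes (ambiguous pairs, 5.37% to 5.66% per library). Separate counts by strand keep many of those pairs, so their shares are not shares of the counts tested. In them the share of read pairs on the opposite strand was 68.2% for *Ccna2*, 65.4% for *Kif20a*, 63.4% for *Kif4* and 40.4% for *Ncapg*, but 0.48% for *Ube2c*. It was 35.2% for *Cdca8* and 16.2% for *Aurka*, which has no annotated overlap. With read pairs of the annotated strand only, the changes in IP and input were -0.24 and -0.29 for *Kif20a*, -0.39 and -0.44 for *Kif4*, -0.44 and -0.51 for *Ccna2*, and -0.13 and -0.40 for *Ncapg*. They were -0.47 and -0.34 for *Cdca8* and -0.27 and -0.46 for *Aurka*, and 44 and 43 of the 55 members were called lower.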

How the data were processed

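RNA-Seq was carried out on 12 IP and 6 input libraries (Stranded Total RNA kit with ribosomal RNA depletion). The authors trimmed the reads with Trimmomatic, aligned them with STAR to GRCm38 with Ensembl annotation and deposited whole-number counts of read pairs per gene, taken over both strands; versions are not given in the sources used here. Depletion libraries also hold unspliced RNA, and overlapping genes can take each other's reads.

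From these counts, genes with at least 10 read pairs in total over all 18 libraries were tested in edgeR 4.0.16 (R 4.3.3). Each test used TMM scaling, a robust quasi-likelihood F test and Benjamini-Hochberg adjustment over all 24495 genes (threshold 0.05). Ethanol was tested in a separate fit for each fraction, to the IP libraries alone and to the input libraries alone, each with its own TMM factors. IP vs. input over both treatments and the difference between fractions were fitted over all 18 libraries. Levels are counts per 1000000 (CPM) scaled by TMM over all 18 libraries, and SEs are the log2 fold change divided by the square root of F. DESeq2 1.42.0 and other settings were alternatives. In simulated counts, 100 genes were changed by 0.3 on the log2 scale and 100 others by 1, all with a mean above 100 counts per library. Of those changed by 0.3, the test of ethanol recovered 92% in IP and 84% in input. These rates do not cover genes with lower counts, such as *Cdc25c*. Positions come from GENCODE M21 (GRCm38) and promoters from RefSeq (GRCm38.p6). Input and IP libraries of 1 dish carry the same dish number. Their deviations correlated by 0.019 to 0.153, against -0.104 to 0.087 (mean -0.016) between other dishes. The dish was a block in an alternative only, not in the main fits.

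The members, lists and tests were chosen with earlier results of these data known. Any member could be named for ethanol, with values per library for the highest member of each role, the 3 most negative and 3 most positive members in each fraction, *Mki67*, *Cdk1* and *Ccnb1*; for IP vs. input the 5 largest and 5 smallest changes; and 3 genes of each other list. Promoters were shown for the members that fell most with a CHR hexamer before the start. *Plk1* was passed over because its hexamer lies after the start. The 11 members with no window in the table used were *Ccna2*, *Cdc25c*, *Pbk*, *Foxm1*, *Aurkb*, *Incenp*, *Tpx2*, *Dlgap5*, *Smc4*, *Cdca2* and *Kif20a*.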

Additional observations from a re-analysis of the deposited data

Results flagged for a closer look

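Of 58 groups of 6 IP libraries examined for a library far from the others (Dixon's gap over range, critical value 0.625), 4 held one; chance gives about 1 in 20. *Spc25* stood at 15.2 CPM in IP control replicate 6, the lowest of its group by 0.709 of the range, and without it the change with ethanol in IP was -0.063 (adjusted p = 0.34). *Ncapd2* stood at 27.8 CPM in IP control replicate 2, the highest by 0.793 of the range, and without it the change was -0.018 (adjusted p = 0.81). The summed other periodic mitosis genes were highest in IP ethanol replicate 3 (968.9 CPM), and the summed D cyclins, Rb1 and CDK inhibitors in IP ethanol replicate 5 (11107 CPM).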

How the results depend on the processing

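Tested against a fold change of 1.2, 3 of the 55 mitosis genes were called for ethanol in IP (*Nek2*, *Pbk* and *Dlgap5*), 6 in input (*Cdc20*, *Kif2c*, *Ckap2l*, *Mki67*, *Top2a* and *Prc1*) and 7 for IP vs. input, with 1 and 4 of the other periodic genes and 4 and 5 of the S phase genes in IP and input. With IP replicates 1 to 3 only, 30 mitosis genes were called (median log2 fold change -0.27) and 18 other periodic genes, and with IP replicates 4 to 6, from the dishes with input libraries, 38 (median -0.34) and 27. Without any 1 library, 40 to 45 mitosis genes were called in IP, 36 to 42 in input and 24 to 27 for IP vs. input, 0 to 0 for the difference between fractions, 28 to 34 and 21 to 23 other periodic genes and 31 to 34 and 25 to 28 S phase genes.

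The sign turned in 3 cases, none called: *Ckap2* (0.0014) and *Ncapg* (0.047) in IP with replicates 1 to 3, and *Spc25* in IP (0.023) with GC and length trends removed. Calls lost without 1 IP library were, with the adjusted p, *Aurka* (control replicate 2, 0.064; 5, 0.073; ethanol 1, 0.051), *Bub1* (control 2, 0.11; 5, 0.075; 6, 0.053; ethanol 2, 0.051; 4, 0.11; 6, 0.071), *Cenpa* (control 3, 0.080; 5, 0.078; ethanol 1, 0.057; 4, 0.067), *Kif23* (control 2, 0.11; ethanol 4, 0.055), *Racgap1* (ethanol 1, 0.051) and *Smc4* (control 5, 0.053). In input they were *Cdca8* (control 5, 0.14; ethanol 4, 0.14), *Dlgap5* (control 6, 0.051), *Hmmr* (control 6, 0.081; ethanol 4, 0.068; 5, 0.054), *Kif11* (control 6, 0.10; ethanol 4, 0.075; 6, 0.21), *Kif20a* (control 4, 0.078; 5, 0.097; ethanol 4, 0.20; 6, 0.083), *Kif22* (control 5, 0.12), *Kif23* (ethanol 4, 0.11), *Ncapg* (control 5, 0.075; 6, 0.29; ethanol 4, 0.37; 5, 0.055), *Ndc80* (control 4, 0.065; ethanol 4, 0.11) and *Nek2* (ethanol 5, 0.052). *Kif15* and *Ttk* in IP, adjusted p 0.055 and 0.053, passed in 7 and 4 of the other settings, *Plk4* in IP with DESeq2 (0.037) and with at least 1 CPM in 3 libraries (0.034), and *Mad2l1* in IP with that filter (0.049). With GC and length trends removed, *Mad2l1* passed in IP (0.014) and *Mad2l1* (0.025), *Ckap2* (0.035) and *Smc4* (0.015) in input, and *Cenpa* in IP no longer did (0.087). In input, DESeq2 did not call *Kif11* (0.061), *Kif20a* (0.053) and *Ncapg* (0.105), the last also lost with total counts (0.053), no filter (0.063) and at least 1 CPM in 3 libraries (0.0503). Calls gained without 1 library were *Kif15* (IP control 1, 0.019; 6, 0.048; IP ethanol 4, 0.046; 5, 0.0054), *Ttk* (IP control 2, 0.039; 4, 0.035; IP ethanol 1, 0.047; 3, 0.028), *Ckap2* (input control 6, 0.049; input ethanol 6, 0.038) and *Kif18b* (input control 4, 0.018).

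Control and ethanol dishes share only a replicate number (correlations of their deviations -0.10 to 0.22 in IP and 0.019 to 0.066 in input). With that number as a block, 46 mitosis genes were called in IP and 43 in input. With the dish as a block, 26 were called for IP vs. input and 0 for the difference between fractions, and no call among the 10 genes named there changed. Removal of GC and length trends was not run for IP vs. input. The median SE over members was 0.088 in input and 0.067 in IP.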
